A study of Mus musculus with 28 samples.

Results

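Night was compared with day in the lateral ventricle choroid plexus of young mice, using 4 night libraries and 4 day libraries out of the 28 RNA sequencing libraries of the series, each chosen by its labels. All 8 are labelled as wild-type C57/BL6 males of batch 1, 3 to 4 months old in the study's design and 3 months in the sample labels. Day tissue was collected at zeitgeber time 6 (ZT6), 6 hours after the lights came on, from mice labelled asleep, and night tissue at ZT18, 6 hours after the lights went off, from mice labelled awake. Time of day and waking therefore cannot be told apart in these 8 libraries. Another 4 libraries came from young wild-type males sampled at ZT6 after 6 hours of disrupted sleep (SD, sleep disruption). The SD libraries entered the fit to estimate the spread between replicates, and their levels are given for some of the genes. For a comparison of cohorts, 12 to 14 month old males of batch 2 were used, either J20+ mice, which carry a human amyloid precursor protein transgene driven mainly in neurons, or their J20- wild-type littermates, with 4 libraries at ZT6 and 4 at ZT18 for each genotype. The samples are numbered separately, but the labels do not say that each is 1 animal, so p-values measure the spread between these samples. All mice were perfused before dissection. Poly(A) RNA from bulk tissue was counted, and fewer cells of a type cannot be told apart from less RNA per cell.

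The choroid plexus is a sheet of secretory epithelium around a vascular stroma that makes most of the cerebrospinal fluid and secretes proteins into it. Its cells carry the circadian clock, a feedback loop in which BMAL1 (gene Arntl) with CLOCK or NPAS2 switches on genes through E-box sequences, and the PER and CRY proteins they encode shut this activity down. A second arm of the loop runs through REV-ERB and ROR proteins, which repress or activate Arntl through ROR elements (ROREs), and output regulators of the bZIP family act through D-boxes. Secretory cells adjust the folding capacity of the endoplasmic reticulum (ER) through the unfolded protein response, in which ATF6 and XBP1 raise chaperone genes, in part through the ER stress response element (ERSE).

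Stretches of 7 promoters are shown because they belong to called clock and ER genes and hold the element through which the pathway's known factors act. Windows of 300 bases around the RefSeq start, from 250 before it to 50 after it, were searched on both strands (build GRCm38.p6). Capitals mark the match, and flanks of 20 bases are in lower case, cut short at a window's end. Sequences are written 5′ to 3′ on the strand of the gene.
Arntl, RORE, chr7:113207518-113207560, plus strand: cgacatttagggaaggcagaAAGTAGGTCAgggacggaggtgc
Cry1, E-box, chr10:85185089-85185134, minus strand: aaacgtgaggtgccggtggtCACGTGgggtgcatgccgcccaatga
Bhlhe41, E-box, chr6:145865548-145865593, minus strand: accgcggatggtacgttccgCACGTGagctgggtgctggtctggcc
Ciart, 3 E-boxes, chr3:95882247-95882364, minus strand: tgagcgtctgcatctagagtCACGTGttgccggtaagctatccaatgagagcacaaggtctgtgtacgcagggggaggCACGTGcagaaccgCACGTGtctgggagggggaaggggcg
Per3, 2 D-boxes, chr4:151044796-151044890, minus strand: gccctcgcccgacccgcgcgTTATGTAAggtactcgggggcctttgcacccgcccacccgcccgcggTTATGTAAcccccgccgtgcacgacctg
Creld2, ERSE, chr15:88819500-88819558, plus strand: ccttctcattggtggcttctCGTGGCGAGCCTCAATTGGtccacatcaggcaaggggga
Hspa5, ERSE, chr2:34772005-34772063, plus strand: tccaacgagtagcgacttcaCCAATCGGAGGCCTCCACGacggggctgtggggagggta
The E-box was searched as CACGTG, the D-box as TTATGTAA or TTACGTAA, the RORE as A, then any 2 bases, then TAGGTCA or TGGGTCA, and the ERSE as CCAAT and CCACG with any 9 bases between them. The E-box was present in 11.1% of the windows of 11545 tested genes, the D-box in 0.901%, the RORE in 1.39% and the ERSE in 0.182%. Of the 40 genes called between night and day, 32 had a window, and 6 of these held an E-box, 3 a D-box, 2 a RORE and 2 an ERSE. The Creld2 match reads on the opposite strand. The Arntl window lies inside the gene's annotated span, chr7:113178471-113314126, at a RefSeq start downstream of its outermost one. These matches describe the letters of the windows and are not measured binding.

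Total counts were 22.5M to 29.0M per library in the 8 libraries. Levels below are CPM, counts divided by library size after scaling by the trimmed mean of M values (TMM). Markers of choroid epithelium summed to 27200 to 31400 CPM by day and 26800 to 29600 at night, and Ttr, the transthyretin gene that marks this epithelium, stood at 4900 to 5630 CPM by day and 5040 to 5950 at night. Night library 4 stood apart. The 40 markers of neurons, oligodendrocytes and astrocytes summed to 1110 CPM in it against 467 to 699 in the other 7 libraries, and the 20 macrophage markers to 427 CPM against 99.8 to 205. Fibroblast markers summed to 666 CPM in night library 4 against 262 to 542 in the other 7. That library was the highest of the 8 for 26 of 40 neural markers. These were 14 of 17 for neurons, 8 of 11 for astrocytes and 4 of 12 for oligodendrocytes. It was also highest for 14 of 20 macrophage markers, and no neural or macrophage marker was at 0 in all 8. For example, the leukocyte gene Ptprc stood at 78.8 CPM in night library 4 and at 4.87 to 12.2 CPM in the other 7, and the astrocyte glutamate transporter gene Slc1a2 at 224 against 15.2 to 58 CPM. Day library 3 differed in another way, with endothelial markers at 77.9 CPM against 184 to 274 in the other 7 libraries and mural markers at 23.1 against 63.6 to 92.8 CPM. Libraries also differed in how levels ran with the share of G and C bases in a gene (GC content). The slope of log2 level, relative to the mean of the 12 young libraries, is given per 10% GC. It was -0.425 in night library 4 and -0.38 in day library 4. In night libraries 1 to 3 it was 0.162 to 0.291, and in day libraries 1 to 3 -0.177 to 0.168. Because of the marker levels, the main counts below are given with and without night library 4. Leaving it out does not even out the GC slopes: night libraries 1 to 3 remain at 0.162 to 0.291, and day library 4 is kept at -0.38.

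**Figure D1:**
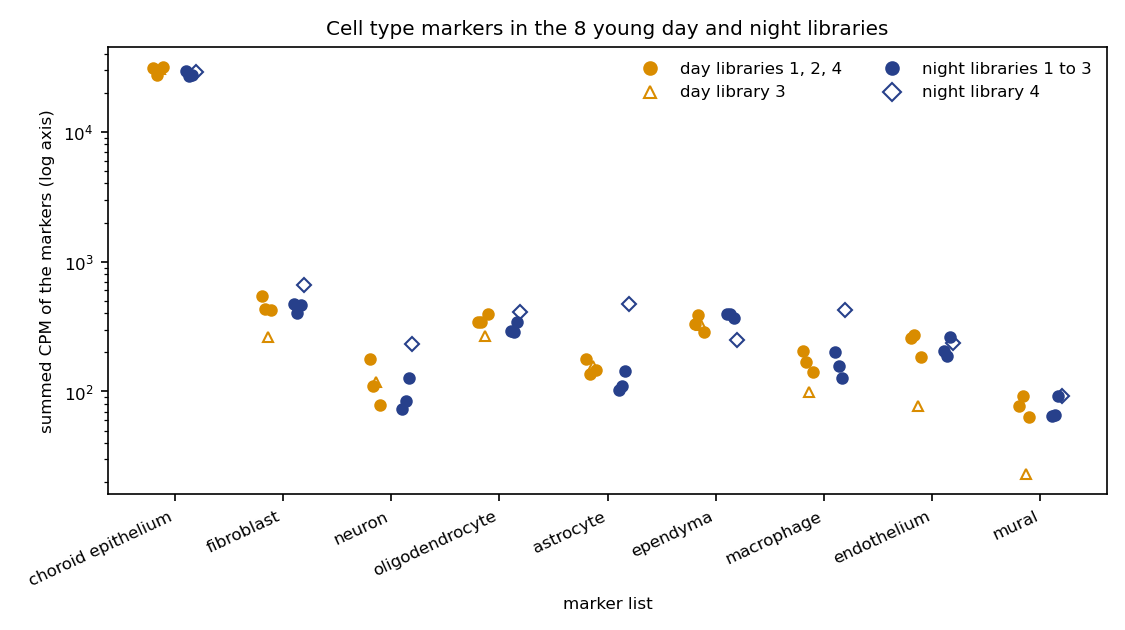
Summed CPM of the markers of 9 cell types in each of the 8 young day and night libraries, on a log axis; each point is 1 library. Choroid epithelium markers lie between 26800 and 31400 CPM in all 8, while night library 4 (open diamond) is highest for astrocyte (470 CPM) and macrophage (427 CPM) markers and day library 3 (open triangle) is lowest for endothelial and mural markers.

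Night and day differed at 40 of 14983 tested genes, 0.267% of them, by edgeR's quasi-likelihood test at a Benjamini-Hochberg adjusted p under 0.05, the rule behind "called", "rose" and "fell". Of these, 21 (0.14%) were higher at night and 19 (0.127%) lower. Their median absolute difference was 0.85 on the log2 scale, and 14 changed by at least 2-fold. The 4 night and 4 day values did not overlap for any of the 40, as was the case for 4.69% of all tested genes. Clock genes and ER protein-folding genes made up 17 of the 40, with 10 in the clock lists and 7 in the ER lists. Without night library 4, 109 of 15055 genes were called (0.724%), 65 higher (0.432%) and 44 lower (0.292%) at night. Of the 40, 39 were still tested and 38 still called, so 71 genes were called without that library and not with it. Calls were recomputed under 18 alternative settings, made up of other tests, scalings, filters, covariates, a fit of 2 groups, a GC correction and each of the 8 libraries left out in turn. Several lowered the count: 15 genes were called without day library 3, 18 without day library 4 and 13 in a fit of the day and night libraries alone. At 34 of these 71 the 2 groups of 4 did not overlap. Over all genes the median log2 difference was 0.02, and 0.002 without night library 4.

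**Figure D2:**
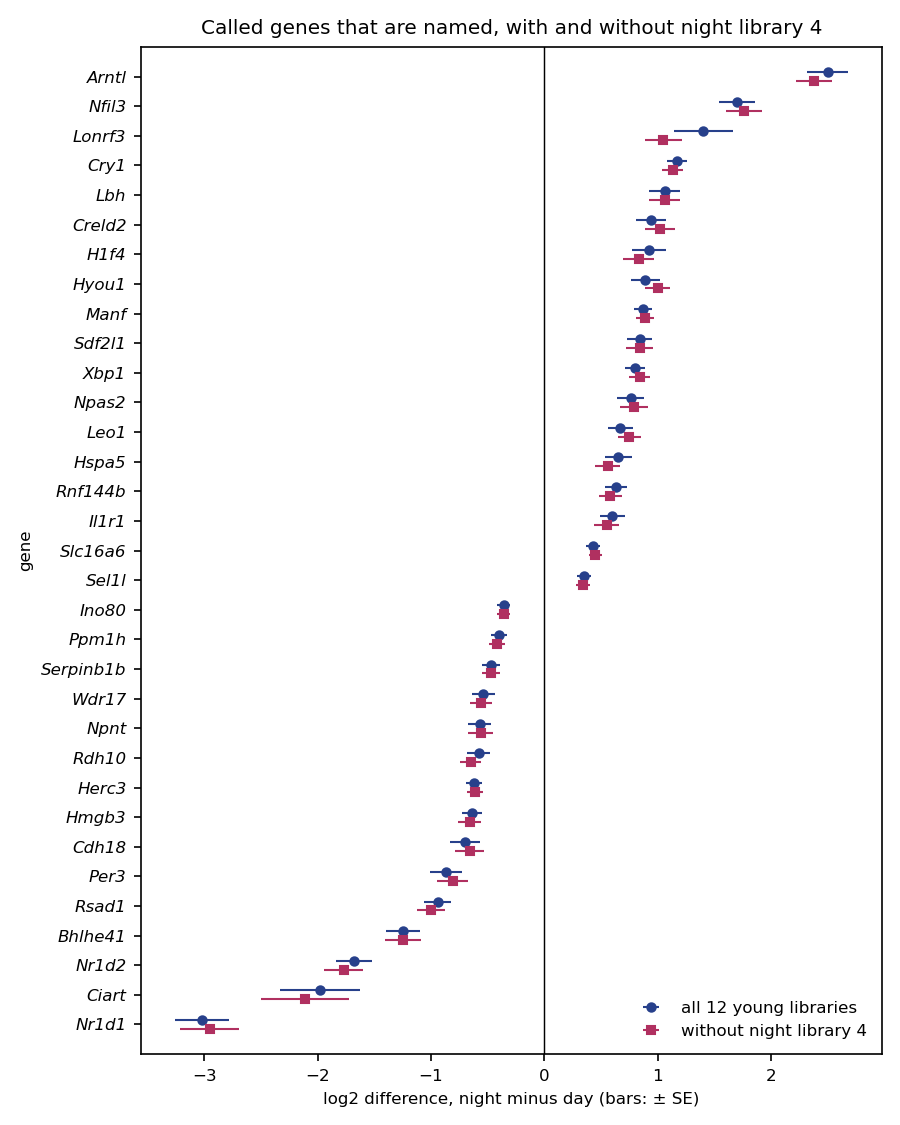
Log2 difference of night minus day with its standard error (SE) for the named genes called between night and day, in the fit of all 12 young libraries (circles) and without night library 4 (squares); Gkn3 is left out because it was not tested in the second fit. The estimates of each gene lie on the same side of 0 in both fits, from -3.02 for Nr1d1 to 2.50 for Arntl.

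Clock genes held several of the largest called changes. Of 29 tested genes of the clock lists, 5 rose and 5 fell at night, against a background of 0.14% and 0.127% of all tested genes. Arntl was 5.67-fold higher at night, and Nr1d1, which encodes its repressor REV-ERB-alpha, was 8.1-fold lower.

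In the activator arm, Arntl stood at 6.56, 6.11, 6.11 and 5.83 CPM in the 4 day libraries and at 35.4, 36.6, 24.2 and 43.3 CPM in the 4 night libraries. Its log2 difference was 2.50 (SE 0.18, adjusted p = 4.47e-05, edgeR). The lowest night library, number 3, was still far above every day library. Npas2, which encodes a partner of BMAL1 related to CLOCK, was at 10.5, 11.1, 10.6 and 10.3 CPM by day and 19.1, 20.1, 15.9 and 17.2 CPM at night, a log2 difference of 0.76 (SE 0.12, edgeR adjusted p = 0.0194). Clock itself was not called: it ran from 339 to 480 CPM by day and from 414 to 623 CPM at night, where the highest value was that of night library 4, and the groups overlapped. Its difference of 0.21 (SE 0.15) was 0.05 without that library. With a correction for GC content the Clock difference was 0.34 (SE 0.05) and was called (edgeR adjusted p = 0.00422), and Npas2 lost its call in 7 of 18 alternative settings. Of the other uncalled genes of this list, Arntl2 and Rorb were below 3 CPM in every library. Rora ran from 24.4 to 30.6 CPM by day and 21.5 to 26.4 CPM at night. Rorb had a difference of 0.24 (SE 0.58), which turned to -0.64 without night library 4.

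The genes for both REV-ERB repressors fell. Nr1d1 (chr11:98767932-98775377) was at 11.2, 16.3, 9.14 and 11.7 CPM by day and 1.37, 1.93, 1.36 and 1.26 CPM at night, a log2 difference of -3.02 (SE 0.24, edgeR adjusted p = 8.59e-05). Nr1d2, for REV-ERB-beta, was at 542, 521, 584 and 740 CPM by day and 142, 156, 226 and 219 CPM at night, a difference of -1.68 (SE 0.16, edgeR adjusted p = 0.000404). Each was high in all 4 day libraries and low in all 4 night libraries, the reverse of Arntl, the gene that REV-ERB proteins repress.

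In the repressor arm, 1 of 16 genes rose and 3 fell. Cry1, a late repressor of BMAL1 and CLOCK, was at 19, 19.9, 18.7 and 20.6 CPM by day and 40.7, 41.9, 45.5 and 47.6 CPM at night, a log2 difference of 1.17 (SE 0.09, edgeR adjusted p = 8.3e-05). The spread within each group was small, with SDs of 0.894 CPM by day and 3.18 CPM at night. Bhlhe41, which encodes the E-box repressor DEC2, was at 9.55 to 11.8 CPM by day and 3.54 to 5.62 CPM at night, with a log2 difference of -1.25 (SE 0.15). Per3 was at 32, 38.1, 37.6 and 39.4 CPM by day and 17.9, 18.6, 26.3 and 17.8 CPM at night, with a difference of -0.87 (SE 0.14). Ciart, for the repressor CHRONO, varied most within the day group, with 2.08, 4.54, 6.27 and 5.83 CPM against 1.01, 1.28, 0.943 and 1.5 CPM at night, and its difference was -1.98 (SE 0.35). These 3 fell with edgeR adjusted p of 0.00211, 0.0208 and 0.0445. Cry1, Bhlhe41 and Ciart, whose windows hold an E-box, did not move together: the first was high at night and the other two by day.

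Per1, Per2 and Cry2 did not pass the test. Per2 ran from 19.4 to 34.5 CPM by day and from 31.4 to 41.9 CPM at night, with overlapping groups and a log2 difference of 0.37 (SE 0.18, edgeR adjusted p = 0.564). Per1 differed by 0.17 (SE 0.29), and its lowest values were 9.37 CPM by day and 11 CPM at night. Cry2 stood at 29, 30.1 and 29.8 CPM in night libraries 1 to 3 and at 18 CPM in night library 4, against 20 to 27.6 CPM by day, and its difference of 0.12 (SE 0.15) was 0.27 without that library (edgeR adjusted p = 0.128). Hence the calls differed within the period and cryptochrome families: Per3 fell and Cry1 rose, and no difference in their relatives was called. Per3 was not tested against Per1 or Per2, nor Cry1 against Cry2. Bhlhe40, for the related repressor DEC1, differed by -0.14 (SE 0.16). The other uncalled members, among them Timeless and the deubiquitinase gene Usp2, lay from -0.17 to 0.54.

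Among the 4 bZIP output genes, the repressor and the activators stood on opposite sides. Nfil3, whose product represses through D-boxes, was at 5.39, 7.22, 6.73 and 5.59 CPM by day and 20.2, 23.1, 20.2 and 17.9 CPM at night, and rose by 1.70 on the log2 scale (SE 0.16, edgeR adjusted p = 0.00027). Dbp, Tef and Hlf, whose products activate through the same element, had differences of -1.68 (SE 0.39), -0.63 (SE 0.16) and -0.41 (SE 0.14), none of which was called (edgeR adjusted p = 0.128, 0.185 and 0.393). Dbp was at 10.4 to 19 CPM by day and at 4.73, 5.6, 5.09 and 1.42 CPM at night, so its groups did not overlap, as those of Tef did not. Without night library 4 the Hlf difference was -0.58 and was called (adjusted p = 0.0296), while those of Dbp and Tef were -1.39 and -0.49 and were not. DESeq2, limma-voom and the fit corrected for GC content called both Dbp and Tef. In a list of 22 further genes reported as clock outputs, 1 rose, Leo1, and 1 fell, Ciart, which is also in the repressor list. Under the alternative settings, Per3 lost its call in 7 of 18 and Ciart in 8 of 17; Arntl, Nr1d1, Nr1d2, Cry1, Bhlhe41 and Nfil3 kept theirs in all 18.

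**Figure D3:**
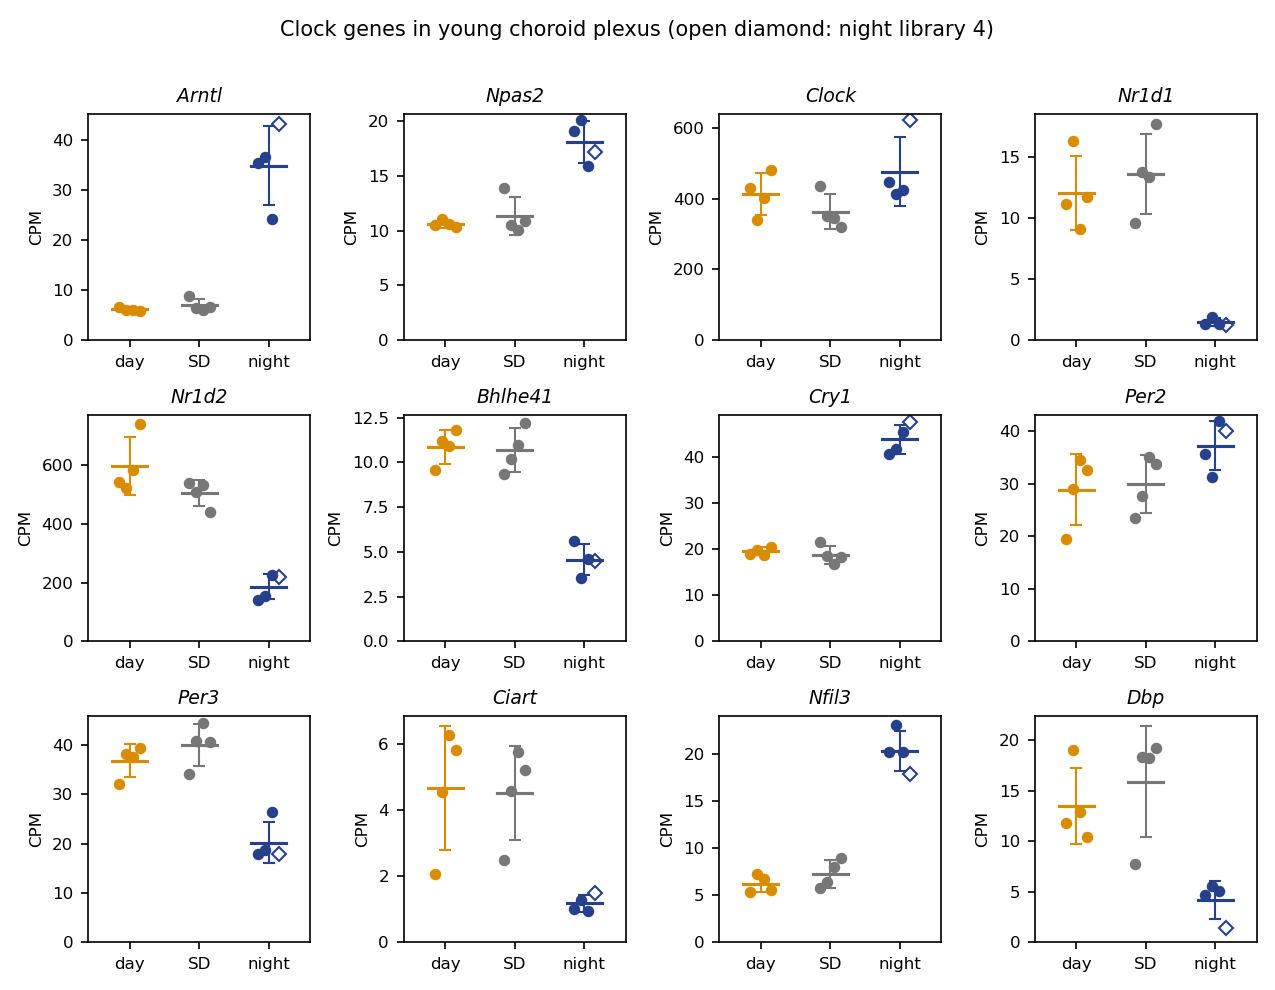
CPM of 12 clock genes in each young library, with the mean and SD of 4 libraries per group (day, sleep disruption, night) on linear axes from 0. For Arntl, Npas2, Nr1d1, Nr1d2, Bhlhe41, Cry1, Per3, Ciart, Nfil3 and Dbp the night points lie apart from the day points, and for Clock and Per2 they overlap.

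The 4 SD libraries, taken at the same ZT6 as the day libraries but after sleep disruption, give the level of these genes by day without undisturbed sleep. In them Arntl stood at 6.08 to 8.91 CPM, Nr1d1 at 9.62 to 17.7 CPM, Nr1d2 at 441 to 540 CPM, Cry1 at 16.9 to 21.5 CPM and Nfil3 at 5.74 to 8.94 CPM. All 5 ranges lie apart from the night values given above. Manf and Xbp1, ER genes described next, stood at 91.5 to 110 and 117 to 153 CPM in the SD libraries, also below all 4 night libraries. For Igfbp2 and Rps29, described further below, the SD values overlapped those of the night libraries.

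ER folding genes were another group with several calls. Of 83 tested genes of ER folding, unfolded protein response transcription and ER-associated degradation, 7 rose and 0 fell, where 0.14% of all tested genes rose. Of the 83 differences, 65 were positive, against 53.9% over all tested genes. The median log2 difference over the 83 was 0.15, against 0.02 over all tested genes. The called changes ran from 1.27-fold for Sel1l to 1.92-fold for Creld2. Of the 7, Manf and Xbp1 were called under all 18 alternative settings, while Sdf2l1 lost the call in 1 (GC correction), Creld2 in 5, Hyou1 in 7, Hspa5 in 9 and Sel1l in 11. These lists were chosen with earlier results of these data known.

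Of 43 ER chaperone and folding genes, 5 rose: Manf, Sdf2l1, Creld2, Hyou1 and Hspa5. Manf, for a secreted ER protein raised by folding stress, was at 106, 90.6, 98.5 and 95.1 CPM by day and 193, 175, 174 and 172 CPM at night, a log2 difference of 0.87 (SE 0.08, edgeR adjusted p = 0.00021). All 4 night libraries lay well above all 4 day libraries, with SDs of 6.37 CPM by day and 9.88 CPM at night. Sdf2l1, for a cofactor of ER chaperone complexes, was at 22.6 to 24.2 CPM by day and 40.2 to 43.1 CPM at night, a difference of 0.84 (SE 0.11). Creld2, an ER stress-induced gene, was at 14, 15.8, 14.9 and 12.1 CPM by day and 31, 28.7, 26.9 and 22.6 CPM at night, a difference of 0.94 (SE 0.13). Hyou1, for an ER chaperone that works with BiP, was at 53.2 to 69.8 CPM by day and at 126, 126, 125 and 91.1 CPM at night, and the lowest of these was night library 4. Its difference was 0.89 (SE 0.13), and 1.00 without that library. Hspa5, which encodes BiP, the main chaperone of the ER lumen, was at 1670, 1270, 1530 and 1690 CPM by day and 2530, 2080, 2220 and 2810 CPM at night, a difference of 0.65 (SE 0.12). For these 4 the edgeR adjusted p was 0.00509, 0.0107, 0.0175 and 0.0454. Hspa5 was highest in night library 4 and Creld2 and Hyou1 lowest there among the night libraries, so that library did not move these genes in 1 direction.

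Without night library 4, 9 of the 43 chaperone genes were called, all higher at night. Calls higher at night also became more frequent over all tested genes, at 0.432% against 0.14% with all libraries. The added genes, named after their values were seen, were Calr, Pdia6, Dnajb11 and Lman2. Calr, for the lectin chaperone calreticulin, was at 602, 543, 569 and 443 CPM by day and 933, 844, 848 and 639 CPM at night, and differed by 0.60 (SE 0.12) with all libraries and by 0.70 (SE 0.10, edgeR adjusted p = 0.00737) without night library 4. In the fit without it, the disulfide isomerase gene Pdia6 differed by 0.48, the BiP co-chaperone gene Dnajb11 by 0.46 and the cargo lectin gene Lman2 by 0.46. In each of the 4 genes, night library 4 was the lowest night library and day library 4 the lowest day library. With GC correction of all libraries, Calr, Pdia6 and Dnajb11 were called and Lman2 was not.

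The transcription factor and degradation genes of the response showed 1 call each. Xbp1, whose spliced product drives ER folding and degradation genes, was at 136, 119, 131 and 132 CPM by day and 248, 217, 230 and 207 CPM at night, a log2 difference of 0.80 (SE 0.09, edgeR adjusted p = 0.0021). It was the 1 gene called of 12 in the transcription list, with 10 differences positive and a median of 0.12. Counts per gene do not show how much of the Xbp1 transcript was spliced. Of 28 genes of ER-associated degradation, Sel1l, for the adaptor of the ubiquitin ligase HRD1, rose from 229 to 249 CPM by day to 294 to 315 CPM at night, a difference of 0.35 (SE 0.06, edgeR adjusted p = 0.0276). Syvn1, for HRD1 itself, was at 10.7 to 16.2 CPM by day and at 27.3, 25, 22 and 12.8 CPM at night. It differed by 0.72 (SE 0.24) with all libraries and was called without night library 4 at 0.90 (SE 0.18, edgeR adjusted p = 0.0483). GC correction of all libraries did not call it. Herpud1 and Derl3, further degradation genes induced by ER stress, had differences of 0.55 (SE 0.12) and 1.33 (SE 0.32) without a call, though neither had overlapping groups. Derl3 rested on few reads, at 0.204 to 0.453 CPM by day and 0.59 to 1.1 CPM at night. DESeq2 called Herpud1, and limma-voom called both.

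The ERSE was found in the windows of 10 of 68 genes of these 3 lists that have a window, or 14.7%, against 0.182% of all tested genes. All 10 had a higher estimate at night, with a median log2 difference of 0.51, and the remaining 58 had a median of 0.13 with 45 positive. Of the 10, Creld2 and Hspa5 were called, and without night library 4 also Calr, Pdia6 and Syvn1. The estimates of Dnajc3 and Canx, at 0.12 (SE 0.10) and 0.05 (SE 0.11), lay near 0, so an ERSE in the window did not come with a called difference in each gene. Canx turned to -0.03 without night library 4.

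**Figure D4:**
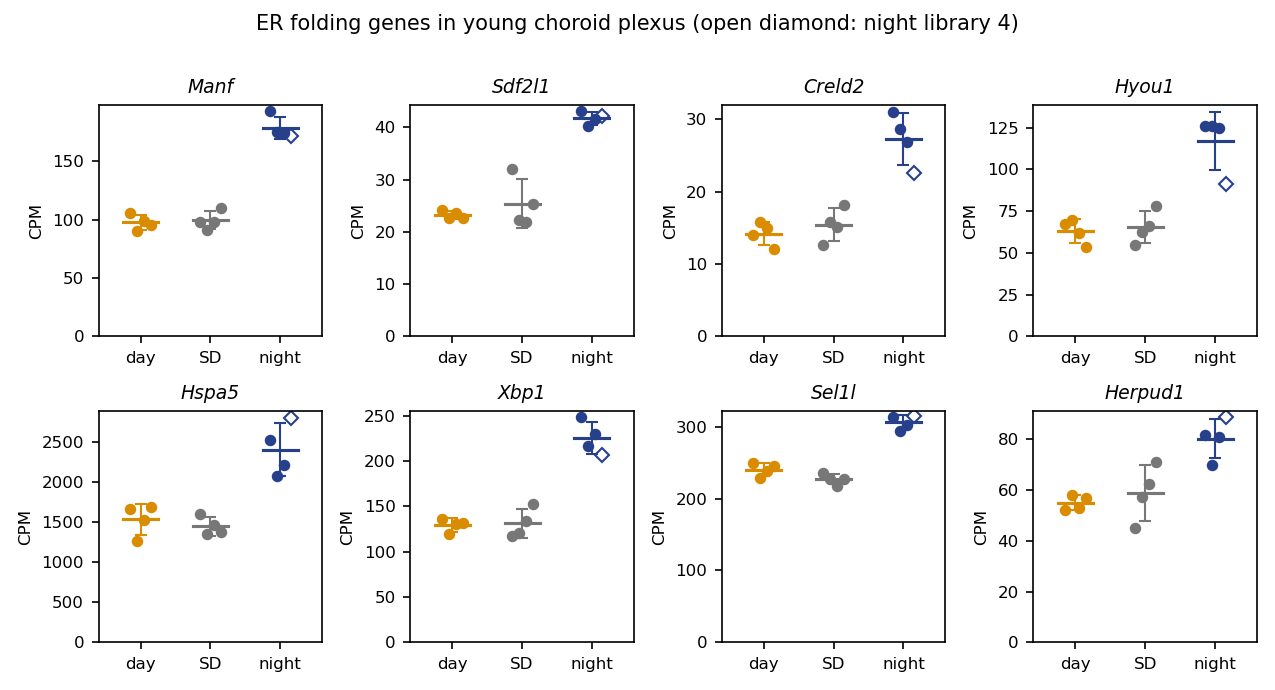
CPM of 8 genes of ER folding and ER-associated degradation in each young library, with the mean and SD of 4 libraries per group on linear axes from 0. All 4 night points lie above all 4 day points in each panel, and the open diamond of night library 4 is the lowest night point for Manf, Creld2, Hyou1 and Xbp1 and the highest for Hspa5, Sel1l and Herpud1.

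Neighbouring pathways had few calls. Over all tested genes, the fit with GC correction called 73 of 13910 higher and 51 lower at night. None of 29 genes of the PERK and ATF4 branch was called (median 0.11), while with GC correction 1 fell. Trib3, a target of that branch, was below 1 CPM in every library and differed by 0.97 (SE 0.36, edgeR adjusted p = 0.432). None of 44 translocon and glycosylation genes (median 0.03) and none of 44 genes of ER to Golgi vesicles (median 0.02) was called, while with GC correction 3 translocon and glycosylation genes were, all higher at night. Without night library 4, 1 of these was called, Prkcsh, for a subunit of glucosidase II, at 39.9, 38.9, 39 and 22.1 CPM at night against 19 to 28.8 CPM by day. For 31 cytosolic heat shock genes the median was 0.16, and none was called, while with GC correction 3 were. Hsph1 was at 242 to 288 CPM by day and 317 to 436 CPM at night (0.47, SE 0.12). Hspb1 was at 1.37 to 2.31 and 2.55 to 3.7 CPM. DESeq2, limma-voom and GC correction called Hsph1, and limma-voom called Hspb1. Of 27 genes of RNA-binding proteins, several of them responsive to temperature, 4 had a positive difference and 1 fell (median -0.12), where 53.9% of all tested genes had a positive one. With GC correction 12 of the 27 were positive and the median was -0.03. Cirbp, the cold-inducible RNA-binding protein gene, was at 14.7 to 19.3 CPM by day and 6.39 to 13.4 CPM at night, with a difference of -0.72 (SE 0.19, edgeR adjusted p = 0.186), which was called by DESeq2, by limma-voom and with GC correction.

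Outside the clock and ER lists, further named genes rose. Slc16a6, of the monocarboxylate transporter family, rose from 96.6 to 102 CPM by day to 131 to 139 CPM at night (0.43, SE 0.06). Il1r1, the interleukin 1 receptor gene, rose from 121 to 148 CPM to 186 to 225 CPM (0.60, SE 0.11), and was the only called gene among 38 hormone and cytokine receptors and among 31 inflammatory genes. Leo1, for a subunit of the PAF1 transcription elongation complex, rose by 0.67 (SE 0.11), Lbh, for a transcription cofactor, by 1.06 (SE 0.14), Rnf144b, for a ubiquitin ligase, by 0.63 (SE 0.10), and the linker histone gene H1f4 by 0.92 (SE 0.15). H1f4 was at 2.72 to 3.28 CPM by day and 4.65 to 6.74 CPM at night; poly(A) selection may miss part of the transcripts of histone genes. Lonrf3, whose window holds an E-box, rose by 1.40 (SE 0.26), with 6.15 to 7.74 CPM by day, 13.3 to 16 CPM in night libraries 1 to 3 and 30.4 CPM in night library 4; its difference was 1.05 without that library. Gkn3 passed the test on few reads, 2, 3, 0 and 2 counts in the day libraries and 10, 11, 11 and 20 at night, and was not tested without night library 4. Of the other named genes of this paragraph, Lbh lost its call in 1 alternative setting, Slc16a6 in 5, H1f4 and Rnf144b in 8, Leo1 in 9, and Il1r1 and Lonrf3 in 10.

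The named genes that fell outside the clock changed by less than 2-fold. Herc3, of a ubiquitin ligase family, was at 134, 136, 144 and 148 CPM by day and 84.7, 98.1, 93.3 and 89.1 CPM at night (-0.62, SE 0.07, edgeR adjusted p = 0.00159). Rsad1 was at 15.9 to 19.9 CPM and 8.75 to 10.6 CPM (-0.94, SE 0.12), and Hmgb3, for a chromatin protein, at 39.4 to 47.5 and 26.5 to 30.6 CPM (-0.64, SE 0.09). Rdh10, for the retinol dehydrogenase that starts retinoic acid synthesis, fell from 185 to 219 CPM to 117 to 151 CPM (-0.58, SE 0.10). Npnt, for the matrix protein nephronectin, fell by 0.57 on the log2 scale (SE 0.10), and the cadherin gene Cdh18 fell by 0.70 (SE 0.13). Smaller drops were measured for Serpinb1b, a protease inhibitor gene (-0.47, SE 0.08), the phosphatase gene Ppm1h (-0.40, SE 0.07), Ino80, for the catalytic subunit of a chromatin remodeller (-0.36, SE 0.06), and Wdr17 (-0.54, SE 0.10). Of these 10, Herc3 and Rsad1 were called under all alternative settings. Hmgb3 lost the call in 3 of them and the other 7 in 8 to 11, though all 10 were called without night library 4.

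Lists that describe the work of the choroid plexus had few or no calls. Of 40 genes of ion and water transport into cerebrospinal fluid, 20 had a positive and 20 a negative difference, with none called and a median of -0.01. None of 38 genes of secreted proteins was called (median 0.09). Igfbp2 stood at 203, 172 and 147 CPM in night libraries 1 to 3 and 93.4 CPM in night library 4, against 83.9 to 128 CPM by day. In the SD libraries it stood at 111 to 176 CPM. Among 50 carrier genes none was called with all libraries in the main fit, while with GC correction 1 rose and 1 fell. Without night library 4, Slc22a8, for the organic anion transporter OAT3, was higher at night by 0.86 (edgeR adjusted p = 0.0059), and Slco1a4, of the organic anion transporting polypeptides, lower (-0.63, adjusted p = 0.0353). Slc22a8 was at 46.2 to 57.6 CPM by day and at 104, 87.2, 98 and 56.8 CPM at night, and Slco1a4 at 512 to 750 and at 443, 385, 397 and 530 CPM. DESeq2 and limma-voom called both genes with all libraries. Of 32 junction genes, Cdh3, for P-cadherin, had the smallest adjusted p, with a difference of 0.95 (SE 0.22, edgeR adjusted p = 0.128), and was called without night library 4 at 1.11 (adjusted p = 0.0202). With all libraries Cdh3 was called by DESeq2, by limma-voom and with GC correction.

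Several lists had a median above 0 that became smaller without night library 4, where macrophage and neural markers were high. The 19 tested macrophage markers had a median of 0.47 with all libraries and 0.13 without it, and the 11 astrocyte markers 0.35 and -0.37. For 25 immediate early genes, which respond to stimulation within minutes, 22 differences were positive with all libraries (median 0.34) and 11 without night library 4 (median -0.04); none was called in either fit. Ier5, with the smallest adjusted p of these, was at 14.1 to 19.6 CPM by day and at 27, 25.8, 20.3 and 30.7 CPM at night (0.64, SE 0.15, edgeR adjusted p = 0.145). DESeq2 and limma-voom called Ier5 with all libraries. For 31 inflammatory genes the median went from 0.29 to 0.17 and for 24 glucocorticoid response genes from 0.17 to 0.03. Il1b, the interleukin 1 beta gene, was at 0.249 to 1.09 CPM by day and at 1.13, 1.44, 1.77 and 3.08 CPM at night without a call (1.54, SE 0.49). The part of the other cell types in these medians was not tested.

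The night and day difference was then set beside that of the aged mice, in a fit of all 28 libraries. Age and batch cannot be told apart in this comparison. Of the 40 genes called in the young, 32 had the same sign in aged wild-type mice, including all 19 that fell and 13 of the 21 that rose, where 60.0% of all genes had the same sign in both. In aged J20+ mice 39 of 40 had the same sign, against 60.6% of all genes, and the exception was Gkn3. Arntl differed by 1.17 in aged wild-type and 1.45 in aged J20+ mice, Nr1d1 by -1.55 and -2.16, Cry1 by 0.97 and 1.30, and Nfil3 by 1.47 and 1.63. Of the 7 called ER genes, Manf (0.51 and 0.94), Xbp1 (0.35 and 0.93), Creld2 (0.67 and 1.08) and Sdf2l1 (0.23 and 0.54) had positive estimates in both aged cohorts. Only that of Creld2 passed the test in both, and that of Sdf2l1 in neither (edgeR adjusted p = 0.392 and 0.37). Of all 16590 genes tested, 3192 passed it in aged wild-type and 27 in aged J20+ mice, so a pass is far more common in the former. The estimates of Hspa5 (-0.44 and 0.38), Hyou1 (-0.23 and 0.67) and Sel1l (-0.31 and 0.42) lay on opposite sides of 0 in the 2 aged cohorts. The other genes with the opposite sign in aged wild-type mice were H1f4, Il1r1, Npas2, Rnf144b and Slc16a6, and the Rnf144b estimate was close to 0.

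The test of the difference between cohorts, young minus aged wild-type, called 0 of 16590 genes (0%) by edgeR in the fit of 28 libraries, with a smallest adjusted p of 0.265 and 2877 genes at an unadjusted p under 0.05. DESeq2 called 9 genes. A fit of the 16 compared libraries alone called 854, among them 10 of the 40: Arntl, Npas2, Nr1d1, Il1r1, H1f4, Npnt, Hyou1, Slc16a6, Sel1l and Hspa5, with edgeR adjusted p from 0.037 to 0.0482. In that fit 5.32% of all 16066 tested genes were called, and the 40 were chosen for their young difference, which enters this contrast, so their count is given as a description. For Nr1d1 the night difference was -3.02 in the young and -1.55 in aged wild-type mice, a difference of -1.47 (SE 0.35), and for Hspa5 it was 0.64 and -0.44, a difference of 1.07 (SE 0.39). Neural markers summed to 1430 to 8850 CPM in the aged wild-type night libraries, 503 to 3580 in the aged wild-type day libraries, 538 to 1220 in the young night libraries and 632 to 776 in the young day libraries, with all 28 libraries scaled together. Their part in the difference was not tested gene by gene. With a neural marker score as a covariate, the fit of 28 libraries also called 0 genes. In that fit 796 genes had an unadjusted p under 0.05 by edgeR, against 2877 without the score.

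**Figure D5:**
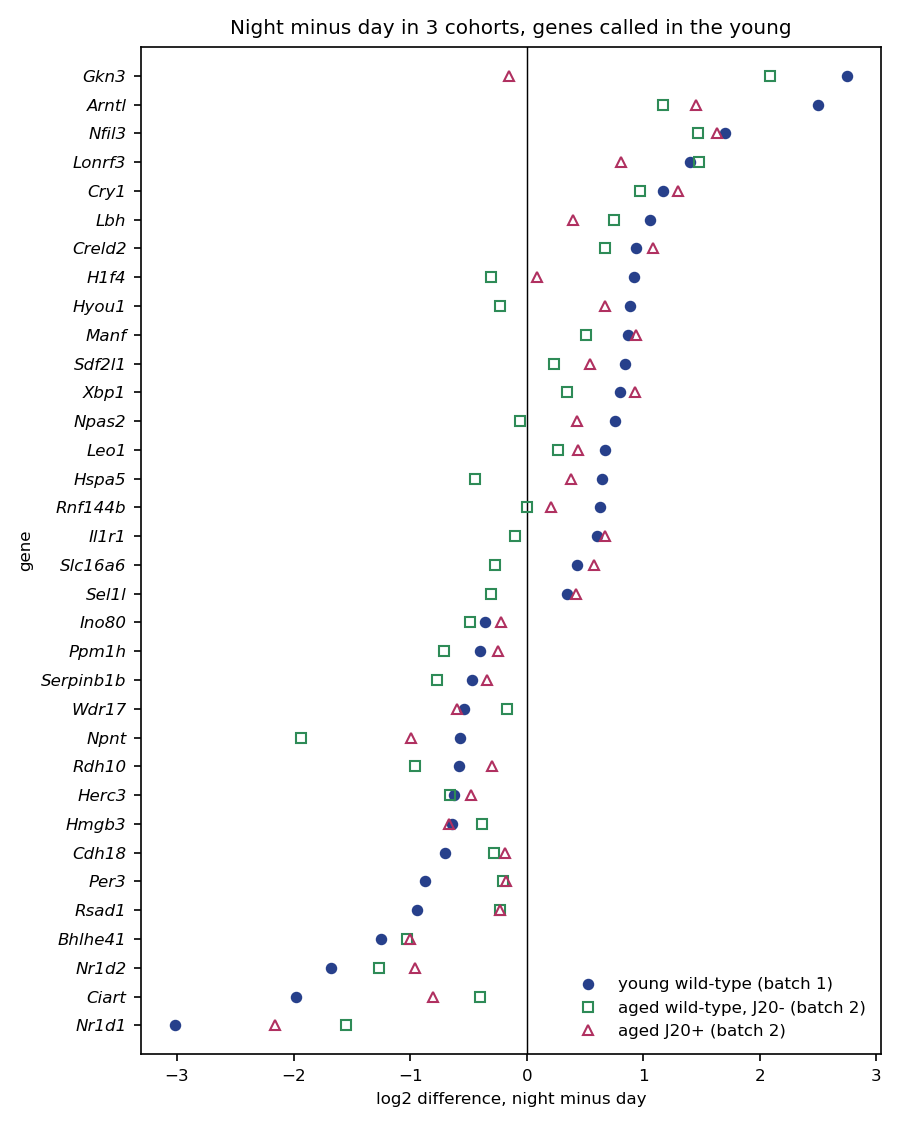
Log2 difference of night minus day for the 34 named genes called in the young, in young wild-type mice (circles), aged wild-type J20- mice (squares) and aged J20+ mice (triangles), with 4 night and 4 day libraries in each. The genes that fell in the young lie below 0 in all 3 cohorts, and Hspa5, Hyou1 and Sel1l lie below 0 only in the aged wild-type mice among the 3.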

How the data were processed

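The authors deposited raw read counts per Entrez gene, without normalization, in a table of 12 young and a table of 16 aged libraries. Per the submitters' processing notes, the build was mm10 and the tools included featureCounts 2.0.1, HISAT2 2.2.1, cutadapt, Picard 2.18.2, FastQC 0.11.8 and DESeq2. The strand setting and annotation they used were not given in the sources used here, so overlapping genes and close paralogues are uncertain. Of 27179 identifiers, 25275 (93.0%) matched a symbol in RefSeq GRCm38.p6.

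Genes passing filterByExpr were tested in edgeR 4.0.16 (R 4.3.3; TMM, robust quasi-likelihood F test, 1 coefficient per group) on the 12 young libraries, contrast night minus day. Benjamini-Hochberg adjustment covered all genes tested. SE is the log2 difference divided by the root of F. Cohorts were compared by an interaction contrast over all 28 libraries. The procedure was tested on simulated data. Alternatives used limma 3.58.1, DESeq2 1.42.0, other scalings and filters, a loess GC correction (span 0.3), marker scores as covariates, and each library left out. No 2 replicates agreed within sampling noise (chi-square per degree of freedom at least 4.57).

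The comparison and the 39 gene lists (28 of processes, 11 of cell type markers) were chosen with earlier results of these data known. Named are the clock list genes, called genes with a full symbol, and called or lowest-p members of lists; exceptions are stated. Some genes that this rule picks are not reported here, but all counts include them.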

Additional observations from a re-analysis of the deposited data

Results flagged for a closer look

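In 180 groups of 4 libraries (day or night values of a named gene, or a marker sum), 14 had a library far from the other 3 by Dixon's gap ratio; chance flags about 1 in 20. Night library 4 was that library in 10 of them. It was high for Clock (623 CPM against 414 to 446 in the other night libraries), Lonrf3 (30.4 against 13.3 to 16), Rorb (2.25 against 0.323 to 0.604), Stk39 (1670 against 1510 to 1530), Gkn3 (0.789 against 0.36 to 0.415) and the astrocyte markers (470 against 103 to 144 summed CPM). It was low for Hyou1 (91.1 against 125 to 126 CPM), Prkcsh (22.1 against 38.9 to 39.9), Cry2 (18 against 29 to 30.1) and Lman2 (134 against 183 to 193). In other night libraries, Nr1d1 was high in library 2 (1.93 against 1.26 to 1.37 CPM), Manf in library 1 (193 against 172 to 175) and Per3 in library 3 (26.3 against 17.8 to 18.6). Day library 3 was high for lymphocyte and neutrophil markers (17.5 against 1.63 to 2.32 summed CPM), of which the neutrophil gene S100a9 made up 8.89 CPM.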

How the results depend on the processing

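Of the 34 named genes called between night and day, 10 were called under each alternative below in which they were tested, apart from those added after seeing the data (Arntl, Nr1d1, Nr1d2, Cry1, Bhlhe41, Nfil3, Manf, Herc3, Xbp1 and Rsad1), 5 lost the call in 1 to 5 of them and 19 in more than 5; none changed sign. The count of 40 called genes was 35 with RLE scaling, 38 with upper-quartile scaling, 34 without a filter, 38 with a minimum of 10 CPM in 4 libraries and 59 with a neural score as a covariate. DESeq2 gave 257, limma-voom 2797, a fit of the day and night libraries alone 13, a macrophage score as a covariate 18 and GC correction 124. Leaving out 1 library gave 15 to 109 calls: 21, 30, 15 and 18 without day libraries 1 to 4, and 20, 22, 22 and 109 without night libraries 1 to 4. Settings added after seeing the data, all without night library 4, gave 457 calls with GC correction, 64 from the day and night libraries alone, 1535 in DESeq2 and 4054 in limma-voom. The cause of these shifts was not tested.

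The cohort comparison called 0 genes except with DESeq2 (9), with only the 16 compared libraries (854) and without aged wild-type night library 3; leaving out 1 library gave 0 to 2. Rorb changed sign with limma-voom (-0.45), the neural score (-0.07), the macrophage score (-0.23) and without night library 4 (-0.64; -0.34 with GC correction, -0.63 with only the day and night libraries, -0.47 with limma-voom); leaving out 1 library at a time gave -0.64 to 0.52. Per1 was -0.21 without night library 4 with GC correction. No paired analysis was possible because replicate numbers follow the order of the sample records and pair no animals. Genes below about 1 CPM, such as Gkn3, rest on few reads.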

Other observations

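Lists outside the comparisons above held few calls. Of 74 cytosolic ribosomal protein genes, 62 had a higher estimate at night, where 53.9% of all tested genes did. Their median log2 difference was 0.21, and 0.32 without night library 4, and none was called. Rps29 was at 7.6 to 12 CPM by day, 11.9 to 17.7 CPM in the SD libraries and 10.7 to 16.3 CPM at night. Of 58 nuclear genes of respiration, 34 were positive (median 0.05). Of 38 motile cilia genes, 11 were positive (median -0.07) and none was called. In fatty acid oxidation, Decr1 was at 169 to 191 CPM by day and 141 to 148 CPM at night (-0.33, SE 0.07) and Etfa at 395 to 469 and 343 to 372 CPM (-0.30, SE 0.07), neither called, and 1 of the 34 tested genes of that list fell. Among 27 antioxidant genes, Nqo1 was at 168 to 192 CPM by day and 126 to 154 CPM at night (-0.38, SE 0.08), and Cat, for catalase, at 294 to 322 and 257 to 275 CPM (-0.22, SE 0.06), with adjusted p of 0.0854 and 0.205 by edgeR. The day and night values of these 4 genes, which are among the lowest-p members of their lists, did not overlap, as was the case for 4.69% of all tested genes. DESeq2 and limma-voom, which called 257 and 2797 genes in all, each called these 4.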
